A study of Flaveria bidentis and Flaveria robusta with 100 samples.

Results

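Flaveria bidentis, a C4 plant, was sampled at 5 dawns, and 2 of them followed a night in which the lights had stayed on. The libraries come from a leaf RNA sequencing series on F. bidentis and its C3 relative F. robusta, collected every 4 h through 2 days of light and dark (LD1 and LD2) and 2 days of constant light (LL1 and LL2), with a last collection at the dawn of LL3. Plants of both species had spent 36 days in a greenhouse and 6 days in a chamber that gave a 10 h day at 22 °C and a 14 h night at 20 °C. Dawn is zeitgeber time 0 (ZT00), the hour at which lights came on, or would have come on, and ZT04 to ZT20 count the hours after it. The dawns of LD1, LD2 and LL1 followed 14 h of dark, since constant light began only with LL1, and they are called dark-night dawns here. The dawns of LL2 and LL3 followed a lit night and are called lit-night dawns. Each dawn has 2 biological replicates per the labels, so the comparison rests on 10 of the 100 libraries, 4 after a lit night and 6 after a dark night. The values are RPM (reads scaled to a common library total), and the authors give their mean for each time point, which makes 5 of the 50 means in the table. No SD or n is attached to a mean, and every p-value rests on scatter among time points and not among plants. The lit-night dawns are also the latest collections, so a lit night and the greater age of the plants or the later day cannot be told apart. Leaves at the lit-night dawns had been in light up to collection, so the lit night and the light at that hour cannot be told apart either. The same day and night temperatures are given for all samples, and which of them held in the lit nights is not known.

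The plant circadian clock is a loop of transcription factors in which dawn-phased MYB factors and evening-phased repressors hold each other down in turn. Light resets the loop each morning, and in the dark a leaf lives on the starch it laid down in the day, with sugar shortage near the end of a night switching on its own set of genes. Dawn after darkness is therefore the hour at which morning clock genes, sugar-starvation genes and genes prepared for the coming light are usually high in Arabidopsis leaves. The authors assigned Flaveria reads to Arabidopsis genes, and symbols and roles are given for those genes as known in Arabidopsis. Entries of close paralogs, such as CCA1 and LHY, PRR3 and PRR7, NIA1 and NIA2 or SBE2.1 and SBE2.2, may share the reads of 1 Flaveria gene and cannot be counted as independent.

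The means sum to between 999417.5 and 1000090 RPM, and the depth behind them is unknown. The 13 light harvesting genes, markers of green leaf tissue, summed to between 90932 and 104166.5 RPM at the dark-night dawns and to 65338 and 74345 RPM at the lit-night dawns, so every dawn sample carries the marker genes of leaf. TMM factors, which scale a mean by the bulk of its genes, were between 0.805 and 0.902 at the dark-night dawns and 0.869 and 0.894 at the lit-night dawns. A single gene compared over 2 against 3 means cannot reach an exact two-sided permutation p below 0.1. Differences were therefore tested with limma on log2(RPM + 1) in a fit over the 25 F. bidentis means, with Benjamini-Hochberg adjustment over all genes tested, and a gene is called where its adjusted p was under 0.05. Differences are lit-night minus dark-night dawn in log2 units and understate the change of genes with few reads.

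Of 13563 genes tested, 4345 were called between lit-night and dark-night dawns, which is 32% of them. Of these, 2367 were higher after a lit night (17.5% of genes tested) and 1978 lower (14.6%). Counts of the gene lists below are to be read beside these shares. A change of at least 2-fold was estimated for 1013 of the called genes, 452 of them higher and 561 lower, and one of at least 4-fold for 194, of which 71 were higher and 123 lower. Values of the 2 lit-night and 3 dark-night dawns did not overlap for 48.5% of all genes tested, 26% with the lit-night dawns on top and 22.4% with them below. The median difference over all genes tested was 0.05.

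The lit-night dawns stood apart from the dark-night dawns by more than dawns of either kind did among themselves. The root mean square (RMS) difference over all genes tested was 0.27 to 0.35 log2 units between pairs of dark-night dawns and 0.41 between the lit-night dawns, against 0.64 to 0.77 between a lit-night and a dark-night dawn. The dawn of LL1 lay nearest the LD dawns, at an RMS difference of 0.23 from their mean. In the values as deposited the dawns of LL2 and LL3 lay nearest ZT04 of the LD days, at 0.49 and 0.50, and were 0.68 and 0.66 away from the LD dawns. After TMM scaling the LL2 dawn was still nearest ZT04, at 0.501, whereas the LL3 dawn was nearest ZT20, at 0.508 against 0.510 from ZT04. The LL2 dawn also lay close to the hours that followed it, with RMS differences of 0.25 to 0.42 from the other hours of LL2, whereas each dark-night dawn differed by 0.58 to 1.07 from the other hours of its own day.

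**Figure D1:**
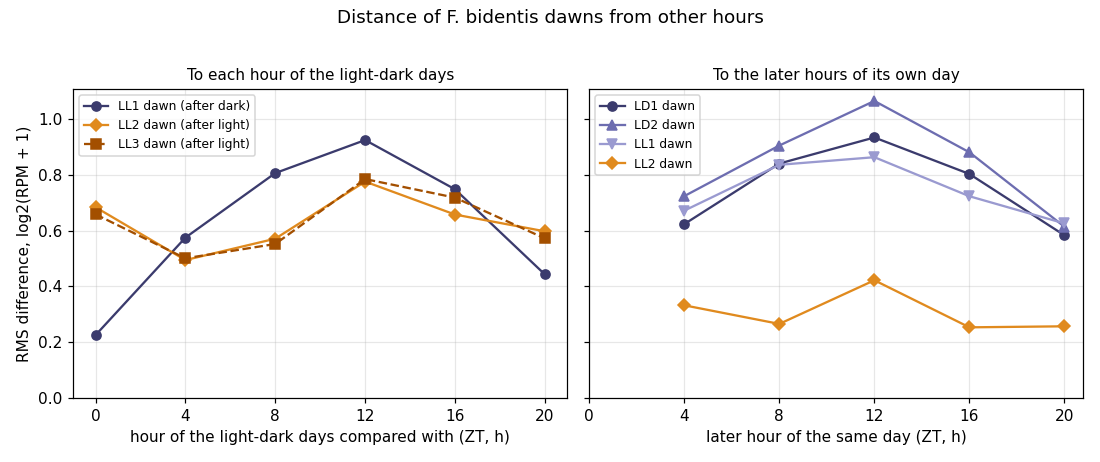
Left, RMS difference in log2(RPM + 1) over all genes tested between a F. bidentis dawn and the mean of the LD days at each hour; right, the same between a dawn and the later hours of its own day. The LL1 dawn, after dark, is nearest ZT00 at 0.23, the LL2 and LL3 dawns are nearest ZT04 at 0.49 and 0.50 as deposited (after TMM scaling the LL3 dawn is nearest ZT20, at 0.508), and the LL2 dawn stays within 0.42 of every later hour of its day.

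The nearest LD hour depended on the gene group and, for some groups, on the scaling; these distances are on the values as deposited unless TMM is named. For the 22 core clock genes the LL2 dawn lay nearest ZT16 (RMS difference 1.29, against 2.11 from the LD dawns) and the LL3 dawn nearest ZT08 (1.14 against 2.42); after TMM these were ZT04 and ZT08. The 8 clock output genes lay nearest ZT16 at both lit-night dawns, at 0.63 and 0.77, against 2.57 and 2.70 from the LD dawns, but after TMM the LL3 dawn was nearest ZT04 for them. Under both scalings the C4 cycle and Calvin-Benson cycle lists lay nearest ZT04 at both lit-night dawns, and the starch breakdown list nearest ZT16. The light signalling list lay nearest ZT04 at both as deposited and nearest ZT16 at both after TMM. The flavonoid list was far from every LD hour, with its nearest, ZT20, still 1.73 and 1.99 away as deposited. After TMM its nearest hours were ZT00 for LL2 and ZT04 for LL3, at 1.77 and 2.12.

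Core clock transcripts shifted in both directions. Of 22 tested, 10 were higher and 7 lower at the lit-night dawns, with differences from -4.21 to 3.28 and a median of 0.15. The 3 dawn-phased MYB factors CCA1, LHY and RVE8 formed the low end. CCA1, which represses evening genes, was at 197.5, 237 and 208.5 RPM at the dawns of LD1, LD2 and LL1 and at 12 and 11 RPM at those of LL2 and LL3. LHY, its close paralog, was at 688.5, 832.5 and 801.5 RPM after dark nights and at 45.5 and 44.5 RPM after lit nights. RVE8, a related MYB factor that activates evening genes, was at 418, 443.5 and 411 RPM and then at 20 and 24 RPM. For each of these genes the dark-night dawns agreed closely and both lit-night dawns lay far below them. The limma differences were -4.10 (SE 0.21) for CCA1, -4.07 (SE 0.20) for LHY and -4.21 (SE 0.15) for RVE8, or linear falls of 18.6-fold, 17.2-fold and 19.3-fold, with adjusted p = 2.9e-09, 2.1e-09 and 6.33e-11.

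The lit-night dawn levels were close to those of the hours around them. Through LL2 from ZT00 to ZT20, CCA1 read 12, 10.5, 9, 8.5, 7 and 9.5 RPM, RVE8 read 20, 23.5, 21, 19.5, 20.5 and 21 RPM, and LHY stayed between 29 and 45.5 RPM. The daily low points in LD were 2.5, 12.5 and 6.5 RPM for CCA1, RVE8 and LHY. Transcripts of these MYB factors thus sat above their LD minimum at the lit-night dawns and far below their LD dawn level.

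Pseudo-response regulators and evening genes moved the other way. TOC1, the evening repressor of CCA1 and LHY, read 3 RPM at each of the 3 dark-night dawns and 32.5 and 44 RPM at the lit-night dawns, a rise of 3.28 (SE 0.21, adjusted p = 2.12e-08 by limma). Through LL2 it stayed between 32.5 and 50.5 RPM, while in LD it ranged from 2.5 to 227.5 RPM. PRR7, a daytime repressor of the morning genes, read 8, 12.5 and 10.5 RPM after dark and 49 and 78 RPM after light. PRR3 read 6, 10 and 8 RPM and then 45 and 72 RPM, and may share reads with PRR7. PRR5 and PRR9, repressors of the same family, were at or below 1 RPM at the dark-night dawns and at 7.5 and 12.5 RPM and 4 and 7 RPM at the lit-night dawns. None of these groups overlapped. The differences were 2.49 (SE 0.19) for PRR7, 2.71 (SE 0.21) for PRR3, 2.42 (SE 0.22) for PRR5 and 2.33 (SE 0.36) for PRR9.

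GI, which stabilises the light-sensing F-box protein ZTL, read 99.5, 116 and 117.5 RPM at the dark-night dawns and 487 and 747.5 RPM at the lit-night dawns, a rise of 2.44 (SE 0.18). FKF1, a blue light receptor that works with GI in flowering, was at 4 RPM at each dark-night dawn and at 22.5 and 70 RPM after lit nights, so the lit-night dawns differed from each other by more than the dark-night ones did. JMJD5, a histone demethylase family member of the clock, rose from 1 RPM at each dark-night dawn to 6.5 and 10.5 RPM. LUX and ELF4, members of the evening complex, were called higher by 0.85 (SE 0.20) and 0.83 (SE 0.18) at levels of at most 5.5 RPM. ELF3, the scaffold of that complex, was lower by limma (-0.76, SE 0.20), with 29, 37 and 32.5 RPM after dark and 16.5 and 21.5 RPM after light. The calls of LUX and ELF3 were lost when 1 lit-night dawn was left out, which leaves a single lit-night mean. Their differences kept their sign, at 0.50 for LUX without LL3 and -0.58 for ELF3 without LL2.

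The other called members were lower. LNK1, a coactivator that partners RVE8, was at 178, 257.5 and 214.5 RPM at the dark-night dawns and at 70.5 and 88 RPM at the lit-night dawns. LWD1, a coactivator of morning genes, fell by 0.88 (SE 0.12), and RVE6, a relative of RVE8, fell by 0.75 (SE 0.14). The members not called were ZTL, LKP2, FIO1, CHE and TIC, each with overlapping dawns and differences from -0.10 to 0.26. ZTL, whose protein rather than transcript cycles in Arabidopsis, read 37, 35.5 and 39 RPM after dark and 35.5 and 38.5 RPM after light.

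**Figure D2:**
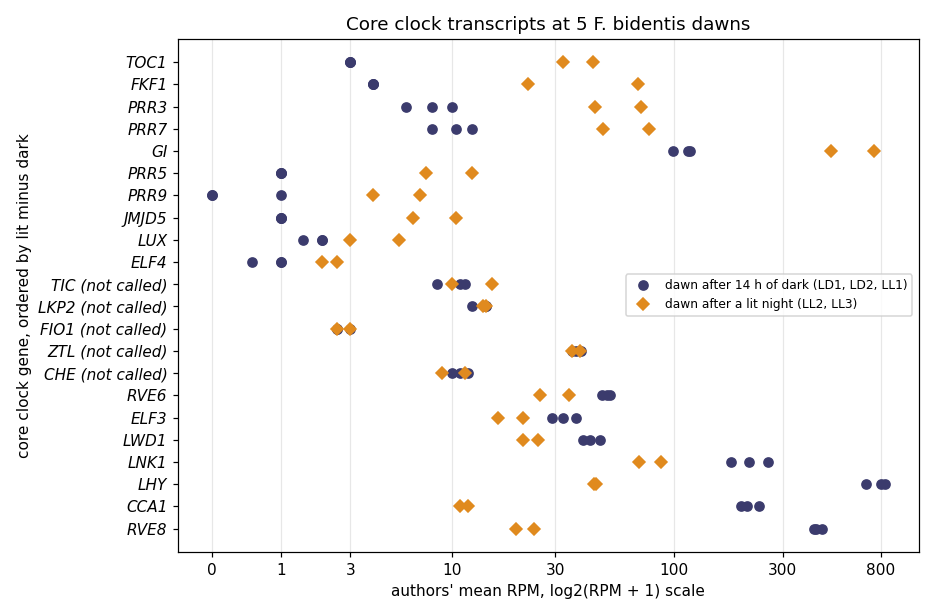
Authors' mean RPM on a log2(RPM + 1) axis for 22 core clock genes at the 3 dark-night dawns (circles) and 2 lit-night dawns (diamonds) of F. bidentis, ordered by their difference. CCA1, LHY and RVE8 sit 17.2-fold to 19.3-fold lower after lit nights, TOC1 rises from 3 to 32.5 and 44 RPM, and the 5 genes marked as not called overlap.

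Clock output genes were mostly lower, as CCA1, LHY and RVE8 were. Of 8 output genes tested, 7 were lower and 1 higher, with a median of -1.93. CO, the photoperiod regulator of flowering, read 101, 128.5 and 113.5 RPM at the dark-night dawns and 8 and 7 RPM at the lit-night dawns, a difference of -3.76 (SE 0.16, adjusted p = 5.84e-10 by limma). COL2, a CO relative that may share reads with it, went from 95.5, 120.5 and 104 RPM to 9.5 and 10 RPM. RVE1, a MYB factor that links the clock to auxin, went from 90.5, 99.5 and 90.5 RPM to 18 and 16 RPM. CDF3, a DOF repressor of CO, fell by 1.88 (SE 0.13). The member against the list was GRP7, an RNA-binding protein gene with a late-day peak in LD. It read 48, 49 and 67.5 RPM at the dark-night dawns and 423.5 and 705.5 RPM at the lit-night dawns (3.31, SE 0.27), between the extremes of its LD range of 48 to 2778.5 RPM.

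Light signalling genes were mostly lower: 14 of 22 fell, 2 rose and the median was -0.77. BBX18, a B-box protein that dampens light responses, read 147.5, 170 and 144 RPM after dark and 8 and 8.5 RPM after light, a difference of -4.06 (SE 0.14, adjusted p = 6.33e-11 by limma). SPA3 and SPA4, partners of the COP1 ubiquitin ligase, fell by 1.21 and 1.22 (SE 0.12 each). SPA3 was at 199, 206.5 and 204 RPM and then at 91 and 84 RPM. RUP2, a repressor of UV-B signalling, fell from 10, 9.5 and 9 RPM to 2 RPM at each lit-night dawn. The photoreceptors CRY1, CRY2, PHYA and PHOT2 were among the genes called lower, by 1.41, 0.74, 1.01 and 1.08. They were picked after their values were seen and do not stand for all photoreceptors, and 6 members of the list were not called. The 2 members that rose were BBX20 and BBX21. BBX20 was listed at 0 at all dark-night dawns and at 2 and 1.5 RPM at the lit-night dawns, and BBX21 rose by 0.66 (SE 0.17), a call that had adjusted p = 0.0946 without LL2.

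Genes that mark sugar shortage were low after lit nights. Of 8 regulators repressed by sugar in Arabidopsis, 5 fell and none rose (median -0.89). The class II trehalose-phosphate synthase genes TPS9, TPS10 and TPS11 carried the largest falls. TPS10 read 93, 140 and 100.5 RPM at the dark-night dawns and 10 and 14.5 RPM at the lit-night dawns (-3.08, SE 0.20). TPS9 went from 122.5, 194 and 144.5 RPM to 17.5 and 20.5 RPM, and TPS11 from 57, 107 and 79.5 RPM to 13 and 14.5 RPM. At both lit-night dawns all 3 lay below each of the 12 LD means, daytime hours included, of which the lowest were 27, 17 and 16 RPM for TPS9, TPS10 and TPS11. BT2, a scaffold protein of sugar and nitrogen responses, fell by 1.26 (SE 0.31), with adjusted p = 0.0662 without LL2.

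In the dark and starvation response list 5 of 15 genes fell, 1 rose and 9 were not called, so a share of 6 in 15 stands against 32% of all genes. DIN10, a raffinose synthase family gene induced by darkness, read 92.5, 132 and 97 RPM after dark nights and 10 and 15 RPM after lit nights (-3.01, SE 0.27, adjusted p = 1.41e-06 by limma). DIN1, a chloroplast sulfurtransferase gene also known as SEN1, went from 58.5, 109 and 70.5 RPM to 11.5 and 18.5 RPM (-2.31, SE 0.42). MCCA and ETFQO, which act in the breakdown of branched-chain amino acids, fell by 2.07 (SE 0.29) and 1.67 (SE 0.25). DIN3, a subunit gene of the same breakdown route, was the member that rose, from 9.5, 9.5 and 9 RPM to 15 and 16.5 RPM. In each of the falling genes the LD2 dawn was the highest of the dark-night dawns.

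**Figure D3:**
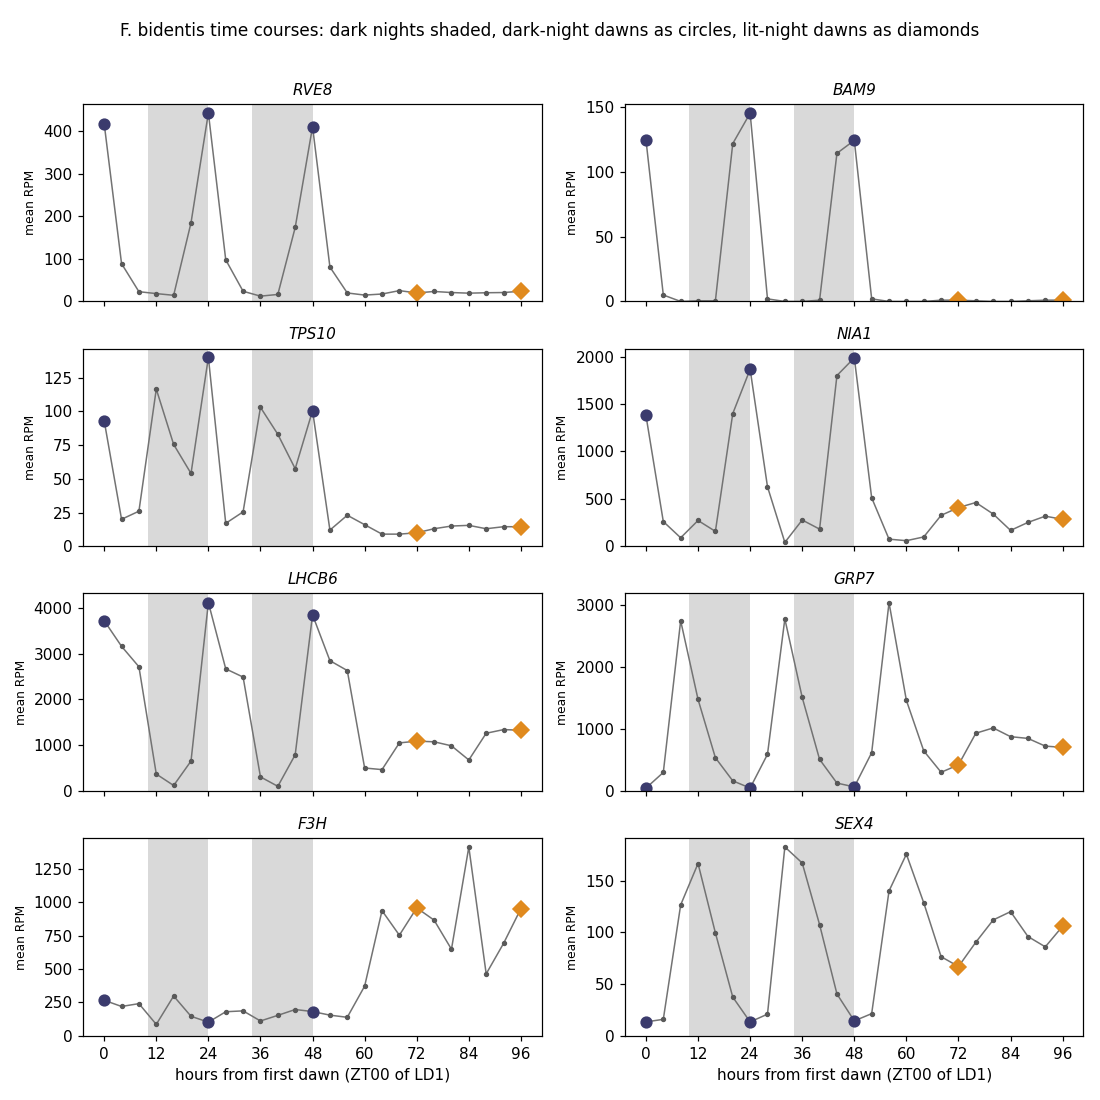
Authors' mean RPM of 8 genes at the 25 F. bidentis time points against hours from the dawn of LD1, with dark nights shaded, dark-night dawns as circles and lit-night dawns as diamonds. RVE8, BAM9, TPS10, NIA1 and LHCB6 peak at or near the dark-night dawns and lie low at the lit-night dawns, GRP7 and SEX4 are lowest at the dark-night dawns, and F3H is near 950 RPM at both lit-night dawns.

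Starch breakdown genes rose in the main, while the largest fall of the whole dawn comparison among list genes was in the same list. Of 20 tested, 11 were higher and 3 lower (median 0.65), beside 17.5% and 14.6% of all genes tested. SEX4, a phosphatase that removes phosphate from starch, read 13.5, 13.5 and 14.5 RPM at the dark-night dawns and 67 and 106 RPM at the lit-night dawns (2.52, SE 0.18, adjusted p = 9.77e-08 by limma). DPE2, a glucanotransferase that handles maltose in the cytosol, went from 54.5, 42 and 45.5 RPM to 165 and 211 RPM. The starch-phosphorylating enzyme gene GWD1 and the phosphorylase gene PHS2 rose by 2.02 and 2.76. In LD these genes are low at dawn and high from the afternoon into the evening: SEX4 reached 182.5 RPM and DPE2 539.5 RPM.

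BAM9, a beta-amylase family member without known catalytic activity in Arabidopsis, read 125, 145.5 and 124.5 RPM at the dark-night dawns and 1 RPM at both lit-night dawns. The difference was -6.05 (SE 0.26, adjusted p = 5.84e-10 by limma), or 131.7-fold on the linear scale of the means. In LD the gene was at 0 to 5 RPM from ZT04 to ZT16 and at 122 and 114.5 RPM at ZT20, before the end of each dark night. At ZT20 of LL1 and LL2 it was at 1 RPM. BAM4, a related gene needed for normal breakdown, fell by 1.37 (SE 0.13), from 70.5, 85 and 66 RPM to 26.5 and 29 RPM. BAM1, a stress-related plastid beta-amylase, was called lower (-1.28, SE 0.43), but the call was lost without LD2 (adjusted p = 0.1), without LL1 (0.0735) and without LL2 (0.25).

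Starch synthesis genes showed the same mixture, with 8 of 14 higher and 3 lower (median 0.49), beside the same shares of all genes tested, 17.5% and 14.6%. The branching enzyme genes SBE2.2 and SBE2.1 rose by 1.58 and 1.54 (SE 0.14 each). SBE2.2 read 110.5, 86 and 103 RPM after dark and 309 and 289 RPM after light. ISA2, a debranching enzyme subunit gene, rose from 5, 4.5 and 4.5 RPM to 12 and 10.5 RPM. SS2, a soluble starch synthase gene, fell from 331.5, 447.5 and 335 RPM to 63 and 61.5 RPM (-2.54, SE 0.26) and was below all 12 LD means at both lit-night dawns. GBSS1, the granule-bound synthase that makes amylose, fell from 984, 1056.5 and 1036 RPM to 611.5 and 544 RPM (-0.83, SE 0.13). GPT2, a glucose-phosphate transporter gene, fell by 0.89 (SE 0.15).

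Nitrogen and sulfur assimilation genes were low after lit nights, with 5 of 7 lower, none higher and a median of -1.69, beside 14.6% of all genes tested that were lower. The NIA entries and the SULTR4 entries are paralog pairs that may share reads, so the 5 calls are not independent. NIA1, nitrate reductase, read 1380, 1866.5 and 1987.5 RPM at the dark-night dawns and 408 and 283.5 RPM at the lit-night dawns (-2.34, SE 0.35, adjusted p = 0.000164 by limma). NIA2, its paralog, followed with -2.39 (SE 0.35). NIR1, nitrite reductase, fell by 1.43, from 800.5, 817.5 and 975.5 RPM to 367 and 278 RPM. SULTR4;1, a vacuolar sulfate exporter, read 237.5, 213.5 and 211.5 RPM after dark and 67 and 68 RPM after light (-1.69, SE 0.12), and SULTR4;2 fell by 1.78 (SE 0.16).

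Light harvesting antenna genes were lower, with 7 of 13 called lower, none higher and a median of -0.42. LHCB6, a minor antenna protein of photosystem II, read 3716, 4112 and 3844 RPM after dark nights and 1089.5 and 1328 RPM after lit nights (-1.69, SE 0.13, adjusted p = 1.51e-07 by limma). LHCB5, another minor antenna gene, went from 11729, 11857.5 and 10207 RPM to 5700 and 6272 RPM. The photosystem I antenna genes LHCA3 and LHCA4 fell by 0.71 each (SE 0.10 and 0.11). The dawn values lay between the LD extremes: LHCB6 ranged from 104 RPM at night to 4112 RPM at dawn in LD.

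Chlorophyll synthesis split, with 8 of 15 lower and 4 higher (median -0.31). CAO, which converts chlorophyll a to b, fell from 986, 1227 and 1031 RPM to 230.5 and 255.5 RPM (-2.15, SE 0.16). The transcription factor genes GLK1 and GLK2, activators of antenna and chlorophyll genes, fell by 1.24 (SE 0.11) and 1.18 (SE 0.13). GLK1 read 35, 39 and 38.5 RPM and then 15.5 and 15 RPM. CHLH, a subunit of the magnesium chelatase that opens the chlorophyll branch, fell by 0.74. The 4 that rose were FC2 (a ferrochelatase of the heme branch), CHLG (chlorophyll synthase), FLU (a brake on the pathway) and DVR (a vinyl reductase), by 0.76, 0.79, 0.67 and 0.91. DVR lost its call without LL2 (adjusted p = 0.0919).

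Photoprotection and light stress genes moved in both directions, with 3 of 13 higher and 4 lower (median -0.08). ELIP1, an early light-induced protein gene, read 145, 69.5 and 90.5 RPM at the dark-night dawns and 392.5 and 311 RPM at the lit-night dawns (1.84, SE 0.34), above every LD mean. ZEP, the zeaxanthin epoxidase gene of the xanthophyll cycle, fell from 515.5, 754 and 706.5 RPM to 193 and 330 RPM (-1.36, SE 0.20). ZAT10, a stress zinc finger gene, fell by 1.44 (SE 0.24) at levels of at most 5.5 RPM. The ascorbate peroxidase entries APX1 and APX2, which may share reads, were called higher by 0.74 and 0.68, with adjusted p = 0.128 and 0.13 without LL2.

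Flavonoid and phenylpropanoid genes went up: 7 of 10 were higher, none lower, with a median of 1.18. F3H, flavanone hydroxylase, read 266, 102.5 and 182 RPM at the dark-night dawns and 956.5 and 951 RPM at the lit-night dawns (2.48, SE 0.35, adjusted p = 0.000118 by limma). DFR, the entry step towards anthocyanins, was at 0, 0.5 and 3.5 RPM after dark and at 18 and 64 RPM after light (4.22, SE 0.75). CHI, chalcone isomerase, and MYB111, a flavonol regulator, rose by 1.34 (SE 0.29) and 1.11 (SE 0.27). F3H, DFR, CHI and MYB111 lay above every LD mean at both lit-night dawns. The dark-night dawns were themselves spread, with LD1 above LD2 for F3H, CHI and MYB111. Without LL2, 4 members of the list were called in place of 7.

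The genes of the C4 cycle, which concentrates CO2 around Rubisco by passing C4 acids between mesophyll and bundle sheath, were mostly higher after lit nights. Of 25 tested, 14 were higher and 3 lower, with a median of 0.47 and most changes under 2-fold. PPDK, which regenerates the CO2 acceptor, read 26113.5, 27540 and 28588.5 RPM at the dark-night dawns and 34414.5 and 43060.5 RPM at the lit-night dawns (0.49, SE 0.10, adjusted p = 0.002 by limma). AMK2, an adenylate kinase that clears a product of PPDK, went from 2235.5, 1605.5 and 1566.5 RPM to 3809.5 and 4479.5 RPM (1.22, SE 0.15). RP1, the regulatory kinase and phosphatase of PPDK, rose by 0.82 (SE 0.11), from 130.5, 120 and 131.5 RPM to 218.5 and 233.5 RPM. For PPDK, AMK2 and RP1 both lit-night dawns lay above all dark-night dawns.

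CA1, the carbonic anhydrase of the entry step, rose from 7293, 7016.5 and 6934 RPM to 11545.5 and 11615 RPM (0.71, SE 0.12). PPC1, phosphoenolpyruvate carboxylase, was not called (0.34, SE 0.14, adjusted p = 0.0763 by limma), although its 25485 and 27553 RPM lay above the dark-night values of 18710.5, 22092.5 and 22323.5 RPM. In a fit of the 5 dawn means alone its adjusted p was 0.0452. The genes for the kinases that phosphorylate that carboxylase, PPCK1 and PPCK2, carried the largest rises of the list. PPCK1 went from 4.5, 9.5 and 12.5 RPM to 45.5 and 65 RPM (2.59, SE 0.36) and PPCK2 from 11.5, 17.5 and 19.5 RPM to 76.5 and 97 RPM (2.38, SE 0.26). The entries may share reads of 1 gene.

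Among the steps that make and move C4 acids, ASP5, a plastid aspartate aminotransferase, read 1229.5, 1149 and 1138.5 RPM after dark and 3167.5 and 2565.5 RPM after light (1.28, SE 0.14). ALAAT1, alanine aminotransferase, rose from 771, 870 and 907.5 RPM to 1829.5 and 1797 RPM (1.096, SE 0.13). NADP-MDH, which makes malate in the chloroplast, rose from 5691.5, 4927.5 and 4834.5 RPM to 7936.5 and 8960 RPM (0.71, SE 0.11). The transporter genes DIT1, PPT1 and DIT2.2 rose by 0.71, 0.52 and 0.47, and ASP2 and NAD-ME1 by 0.48 and 0.35. PPDK, AMK2, ASP5, ALAAT1, NADP-MDH, DIT1, CA1 and ASP2 lay above all 12 LD means at both lit-night dawns. NAD-ME1 lost its call without LL2 (adjusted p = 0.125), and DIT2.2 without LL2 (0.0864) or without LD2 (0.0564).

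The decarboxylation steps moved less or fell. The NADP-ME entries 1, 2 and 4 had differences of 0.14 each and were not called (adjusted p = 0.255, 0.323 and 0.267 by limma). They are entries of the malic enzyme family whose C4 form releases CO2 in the bundle sheath, and they may share reads of 1 gene. PCK1 and PCK2, entries for the alternative decarboxylase that may also share reads, fell by 0.70 and 0.74 (SE 0.16 each). PCK1 went from 60.5, 47.5 and 61 RPM to 32 and 36.5 RPM. PPT2, a second phosphoenolpyruvate transporter entry, was lower by 0.37 (SE 0.11) in the limma fit with adjusted p = 0.0185, and was not called without LL2 (0.221), without LD2 (0.0571) or with the dawn means alone (0.0829). BASS2, the pyruvate importer, NAD-ME2, ASP1 and PPC2 were not called.

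Calvin-Benson cycle genes had 6 of 14 higher and 2 lower (median 0.22). The redox regulators CP12-1, CP12-2 and CP12-3 rose by 1.23 (SE 0.13), 1.22 (SE 0.13) and 1.03 (SE 0.10), CP12-2 from 228, 244.5 and 238 RPM to 480.5 and 639 RPM. RPI, ribose-phosphate isomerase, rose by 1.56. RCA, Rubisco activase, fell from 11470, 11653.5 and 11172.5 RPM to 6287 and 5459.5 RPM (-0.96, SE 0.10, adjusted p = 3.26e-06 by limma). SBPASE was called lower (-0.33, SE 0.10) but not without LD2 (adjusted p = 0.0773), without LL3 (0.157) or with the dawn means alone (0.0571).

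Photorespiration had 2 of 15 higher and 3 lower (median -0.06), a share of 5 in 15 beside 32% of all genes. SHM1, mitochondrial serine hydroxymethyltransferase, fell from 1880, 1984.5 and 1850 RPM to 1086.5 and 1094 RPM (-0.80, SE 0.09). GLDP2 and GLDT, subunit genes of the glycine decarboxylase that feeds SHM1, went in opposite directions, by -0.71 (SE 0.18) and 0.71 (SE 0.12). GLN2, plastid glutamine synthetase, rose by 0.49 (SE 0.13). Without LL2, GLDP2 and GLN2 were not called (adjusted p = 0.0829 and 0.0503) and the list held 2 calls.

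Heat shock genes had 2 of 5 higher and 1 lower, beside 17.5% and 14.6% of all genes tested. HSP90.1, a cytosolic chaperone gene, rose from 156, 117.5 and 155 RPM to 507.5 and 378 RPM (1.62, SE 0.18), and HSFA2, a heat stress transcription factor, fell by 0.97 (SE 0.16). HSP101, a disaggregase gene, rose by 0.96 (SE 0.26) and lost its call without LD2, LL2 or LL3 (adjusted p = 0.0514, 0.0541 and 0.0566).

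Marker genes of cell types and states were read in the same way, in lists too short to set a share firmly against the 32% of all genes tested. The vascular list had 2 of 6 genes called and the senescence list 1 of 4, which is near that share. In the guard cell list 2 of 4 fell: FAMA, which sets guard cell identity, by 0.68 (SE 0.12) and MYB60 by 0.44 (SE 0.13), the latter with adjusted p = 0.16 without LL2. The sum of the list was 29.5 to 35 RPM after dark and 18.5 and 21 RPM after light. In the epidermis list 2 of 3 fell, with KCS10 at 0.81 (SE 0.14) and CER5 at 0.59 (SE 0.15, adjusted p = 0.0985 without LL2) below dark-night dawns, and the sum went from 296.5 to 316.5 RPM down to 173.5 and 184 RPM. In the vascular list SWEET11, a sucrose exporter of phloem parenchyma, fell by 0.91 (SE 0.12), and SUC2, the companion cell sucrose importer, rose by 0.83 (SE 0.19, adjusted p = 0.0746 without LL3). XCP1 and CESA4, markers of xylem, were not called, and the vascular sum was 560.5 to 623 RPM after dark and 597.5 and 652.5 RPM after light. In these bulk leaves fewer cells of a type and less RNA per cell cannot be told apart, and the part of cell types in the other results was not tested.

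None of 3 cell division genes was called by limma, and none had an unadjusted p under 0.05, and their sum ran from 55.5 to 99.5 RPM after dark and was 113.5 and 41 RPM after light. Of 4 senescence genes NAP, a NAC factor that promotes senescence, fell from 10, 24.5 and 12 RPM to 1.5 and 3.5 RPM (-2.20, SE 0.40). SAG12, a late senescence marker, read 16, 30.5 and 38 RPM after dark and 50.5 and 38.5 RPM after light and was not called (adjusted p = 0.135 by limma). Without LL2, the chlorophyll breakdown genes NYC1 and PAO of that list were called higher (adjusted p = 0.0207 and 0.0245), so 3 members were called.

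**Figure D4:**
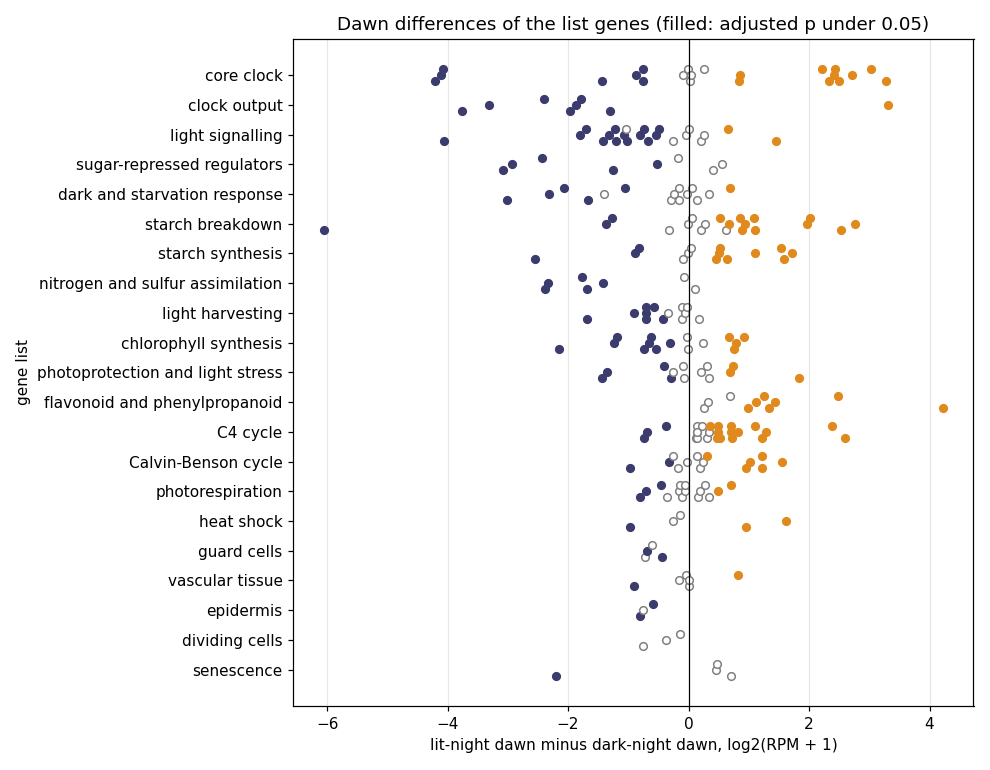
Lit-night minus dark-night dawn in log2(RPM + 1) for each tested gene of 21 lists, filled where limma's adjusted p was under 0.05 and open otherwise. Clock output, light signalling, sugar-repressed regulators and nitrogen and sulfur assimilation lie mostly to the left, the flavonoid and C4 cycle lists mostly to the right, the core clock at both ends, and BAM9 is the point at -6.05.

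Beyond the lists, the described genes with the largest rises included genes of both branches of vitamin B1 synthesis. AT2G29630, thiaminC, which makes the pyrimidine part of thiamine, read 51, 54.5 and 68.5 RPM at the dark-night dawns and 466.5 and 989 RPM at the lit-night dawns (3.54, SE 0.28, adjusted p = 5.19e-07 by limma). AT5G54770, the thiazole synthase THI1, went from 166.5, 185.5 and 259.5 RPM to 1802 and 2834.5 RPM (3.49, SE 0.21). In LD both have a broad daily peak, up to 3485 and 10653.5 RPM, with their lowest means at dawn. AT5G23240, a DNAJ domain protein, had the largest rise of these genes, from 0.5 RPM at each dark-night dawn to 18 and 81 RPM (4.72, SE 0.48).

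AT1G70820, annotated as a putative phosphoglucomutase, rose from 6, 5.5 and 5 RPM to 71.5 and 98 RPM (3.71, SE 0.26). The gibberellin-regulated genes AT1G74670 and AT5G15230 rose by 3.33 (SE 0.31) and 3.26 (SE 0.30), the former from 41, 22 and 27 RPM to 315 and 287 RPM. The vacuolar processing enzyme genes AT2G25940 (alpha) and AT3G20210 (delta), which encode cysteine proteases of the vacuole and may share reads, rose by 3.10 (SE 0.54) and 2.93 (SE 0.48). Their LL3 dawn was far above their LL2 dawn, at 1051.5 against 251.5 RPM for AT2G25940 and 92 against 22.5 RPM for AT3G20210. AT4G27900, a CCT motif protein, rose by 3.53 (SE 0.42), and AT3G01310, annotated as phosphoglycerate mutase-like, by 3.08 (SE 0.27).

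The described genes with the largest falls included AT4G27420, an ABC-2 type transporter, which went from 47.5, 82 and 47.5 RPM to 1 RPM at both lit-night dawns (-4.86, SE 0.27, adjusted p = 7.41e-09 by limma). AT3G01640, glucuronokinase G, went from 110, 202 and 120 RPM to 4 and 4.5 RPM (-4.74, SE 0.27). AT5G47560, the tonoplast dicarboxylate transporter that carries malate into the vacuole, went from 128.5, 178 and 139 RPM to 5 and 11 RPM (-4.13, SE 0.33). In each of these the LD2 dawn was the highest of the dark-night dawns and the lit-night dawns lay below all of them.

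AT3G15450 and AT4G27450, annotated as aluminium-induced proteins with YGL and LRDR motifs, may share reads and had differences of -4.07 (SE 0.17) and -3.91 (SE 0.17). AT4G27450 read 1584.5, 2311 and 1705 RPM after dark and 112 and 132 RPM after light. AT2G17880 (a DnaJ domain chaperone) and AT2G19810 (a CCCH zinc finger) had -4.05 and -3.98. AT2G34350 and AT1G18940, nodulin-like transporters of the major facilitator family, and AT5G62420, an oxidoreductase, had -3.84, -3.70 and -3.72. AT3G15450, AT4G27450, AT3G01640 and AT2G19810 lay below all 12 LD means at both lit-night dawns.

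The called genes were also set against the range of the LD days. At both lit-night dawns 3247 of the 4345 called genes, or 74.7%, lay within the range of the 12 LD means, beside 82.2% of all genes tested. At both lit-night dawns 211 called genes were above every one of the 12 LD means and 274 were below every one, which is 11.2% of called genes, beside 4.51% of all genes tested that lay outside in the same way. The remaining 3860 were inside that range or differed between the lit-night dawns. The LD1 and LD2 dawns enter both the call and the 12 LD means. Called genes were thus favoured in advance to lie outside the range, and these shares are a description and not a test. Of the 4345 called genes 1768 lay farther from the dark-night mean at LL3 than at LL2, or 40.7%, with 1016 of the 2367 higher genes and 752 of the 1978 lower ones.

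The dawn difference was also set against the difference at the night hours ZT12, ZT16 and ZT20, where LL1 is the first night with the lights on. That night itself had 4338 genes called against the dark nights (32% of genes tested), 966 higher (7.12%) and 3372 lower (24.9%). This split is on the values as deposited and was not counted after TMM. At these hours TMM factors were 1.078 to 1.27 in the LD nights and 0.924 to 1.097 in LL1. The median night difference over all genes tested was -0.15, so part of the excess of lower genes may lie in the scaling. The dawn difference minus this night difference was called for 1898 genes, 14% of those tested, 1321 of them higher (9.74%) and 577 lower (4.25%). The direction of the dawn-minus-night split depended on scaling, with 491 higher and 885 lower after TMM. The LL1 collections are the hours just before the LL2 dawn, and dawn and night draw on different means within 1 fit.

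LHCB6 and LNK1 had opposite signs in the night and at dawn. LHCB6 was higher in the first lit night than in dark nights by 1.05 (SE 0.10) and lower at the lit-night dawn by 1.69, a difference of -2.74 (SE 0.16, adjusted p = 1.08e-07 by limma). LNK1 likewise was 1.61 higher at night and 1.43 lower at dawn. RVE8, BBX18 and CO were lower at both, and the dawn difference minus the night difference was -3.34, -3.04 and -3.14 (SE 0.19, 0.18 and 0.20). TOC1 had a night difference of 0.37 (adjusted p = 0.0909) and a dawn rise of 3.28. AT3G07650, CONSTANS-like 9, was at 17, 12.5 and 16 RPM at dark-night dawns and at 88.5 and 111 RPM at lit-night dawns, with a night difference of -0.23 (adjusted p = 0.199 by limma). TPS10, by contrast, had -2.74 in the night and -3.08 at dawn. PPCK1 had risen by 2.80 and 2.59 and F3H by 2.06 and 2.48.

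At the daytime hours ZT04 and ZT08, LL2 after a lit night was compared with LD1, LD2 and LL1, and 2133 genes were called (15.7%), 1175 higher (8.66%) and 958 lower (7.06%). The dawn difference minus this daytime difference was called for 2471 genes, 18.2% of those tested, 1209 higher (8.91%) and 1262 lower (9.3%). BAM9, which is nearly absent in the day, had a dawn difference minus day difference of -5.38 (SE 0.35, adjusted p = 1.94e-07 by limma) and a day difference of -0.67 (adjusted p = 0.0636). BBX18 and RVE8 had -3.79 (SE 0.19) and -3.23 (SE 0.20) between dawn and day. AT5G54770 and AT1G70820 were higher at lit-night dawns but lower in the LL2 day, by 1.09 and 1.27, and PRR7 by 0.82. AT2G46670 (a CCT motif protein) and AT2G22910 (N-acetyl-l-glutamate synthase 1) had the same pattern, with dawn rises of 2.58 and 2.31 and day falls of 0.44 and 0.48.

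NIA1 went the other way, with a dawn fall of 2.34 and a day difference of 1.22 (adjusted p = 0.0159). Of the 25 C4 cycle genes 4 differed between dawn and day, a share near the 18.2% of all genes tested. Their lit-minus-dark difference was higher at dawn than in the LL2 day, but PPCK1 and PPCK2 may share reads of 1 gene. The dawn difference minus the day difference was 2.93 (SE 0.485) for PPCK1, 2.65 (SE 0.351) for PPCK2, 0.81 (SE 0.147) for RP1 and 0.57 (SE 0.179) for ALAAT1, with adjusted p = 0.000764, 0.000118, 0.00113 and 0.0376 by limma. The ALAAT1 call was lost after TMM (adjusted p = 0.074) and without LD1, LD2, LL2 or LL3 in turn (adjusted p = 0.0587 to 0.0972). ASP5, AMK2, NADP-MDH and DIT1 were higher at dawn by 1.28, 1.22, 0.71 and 0.71 and higher in the LL2 day by 1.22, 1.32, 0.72 and 0.73. DFR and F3H were higher in the day by 3.74 and 2.02.

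F. robusta, the C3 species of the series, was sampled at the same dawns, and 4071 genes were called there (30%), 3327 higher (24.5%) and 744 lower (5.49%). Its LL3 dawn stood apart in composition, with a TMM factor of 1.29 where its other dawns lay between 0.832 and 0.874. The dawn difference of F. bidentis minus that of F. robusta was called for 1164 genes, or 8.58% of those tested, 265 higher (1.95%) and 899 lower (6.63%). Without the F. robusta LL3 dawn 326 genes were called, 160 higher and 166 lower, and after TMM the split was 564 higher and 686 lower. In all 3 fits 264 genes were called. Named genes are given as differing between species only where all 3 agree.

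In the core clock the largest shifts were found in both species: CCA1 went in F. robusta from 344, 316.5 and 315 RPM to 27.5 and 29.5 RPM, and TOC1 from 3.5, 2 and 2.5 RPM to 39 and 65.5 RPM. Of the core clock genes, PRR7 and RVE6 differed between species in all 3 fits. PRR7 rose by 2.49 in F. bidentis and by 1.403 (SE 0.22) in F. robusta, where its dark-night dawns were already at 29.5, 27 and 36.5 RPM, a difference of 1.09 (SE 0.31, adjusted p = 0.0273 by limma; 0.0666 without LD1 and 0.153 without LL3 of F. bidentis). RVE6 fell by 0.75 in F. bidentis and by 1.55 (SE 0.15) in F. robusta, and this call was lost without LL3 of F. bidentis (adjusted p = 0.108).

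Of the C4 cycle, NADP-MDH, AMK2 and ASP5 differed between species in all 3 fits. NADP-MDH rose by 0.71 in F. bidentis and in F. robusta went from 831, 814.5 and 843 RPM to 487.5 and 522.5 RPM, a difference of 1.43 (SE 0.19, adjusted p = 2.89e-05 by limma). AMK2 rose by 1.22 in F. bidentis and had 63, 61.5 and 62.5 RPM and then 71 and 58.5 RPM in F. robusta. ASP5 was at 133.5, 148 and 118 RPM and at 132.5 and 192 RPM in F. robusta, and its species call had adjusted p = 0.0525 without LL2 of F. bidentis. PPDK was not called between species, with 490, 462.5 and 366 RPM and then 991 and 1141.5 RPM in F. robusta.

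DIN10 and ETFQO of the starvation list differed between species. DIN10 fell by 3.01 in F. bidentis, while F. robusta had 8, 11 and 9.5 RPM after dark and 5.5 and 6.5 RPM after light (difference -2.43, SE 0.35). ETFQO fell by 1.67 in F. bidentis and was 0.97 (SE 0.25) higher in F. robusta. The sulfate exporters SULTR4;1 and SULTR4;2, which may share reads, fell more in F. bidentis, by 1.36 (SE 0.20) and 1.43 (SE 0.24). GLK1 was less lowered, with -1.24 against -2.25 (SE 0.16) in F. robusta. HSP90.1 rose more in F. bidentis, by 1.03 (SE 0.26). BBX20 had a species difference of 1.16 (SE 0.32) at values near the floor. In F. robusta it was listed at 0 at all dark-night dawns and at 0 and 0.5 RPM at the lit-night dawns. In F. bidentis it reached 2 and 1.5 RPM.

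Beyond the lists, AT3G01120 and AT1G33320, pyridoxal phosphate-dependent transferases that may share reads, rose in F. bidentis by 2.01 (SE 0.16) and 2.09 (SE 0.15) and had -0.27 and -0.42 in F. robusta. AT3G01120 read 176, 152 and 190 RPM and then 642.5 and 755 RPM in F. bidentis, and 580, 604.5 and 776 RPM and then 564.5 and 512 RPM in F. robusta. AT2G34350, AT1G18940 and AT2G34355, transporters of the major facilitator family, had -3.84, -3.70 and -2.75 in F. bidentis against -0.43, -0.53 and 0.21 in F. robusta. Some of these entries, such as AT2G34350 and AT2G34355, may share reads. AT5G62420 is listed at 0 in 4 of the 5 F. robusta dawns, so its difference is that of F. bidentis. AT5G48960, a nucleotidase family gene, fell from 197, 251 and 199.5 RPM to 57 and 60.5 RPM in F. bidentis and read 141, 150 and 154 RPM and then 158.5 RPM at each lit-night dawn in F. robusta. AT4G12470, azelaic acid induced 1, was not called in F. bidentis (0.20, SE 0.17) and in F. robusta went from 28, 28.5 and 36 RPM to 4.5 and 2 RPM.

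**Figure D5:**
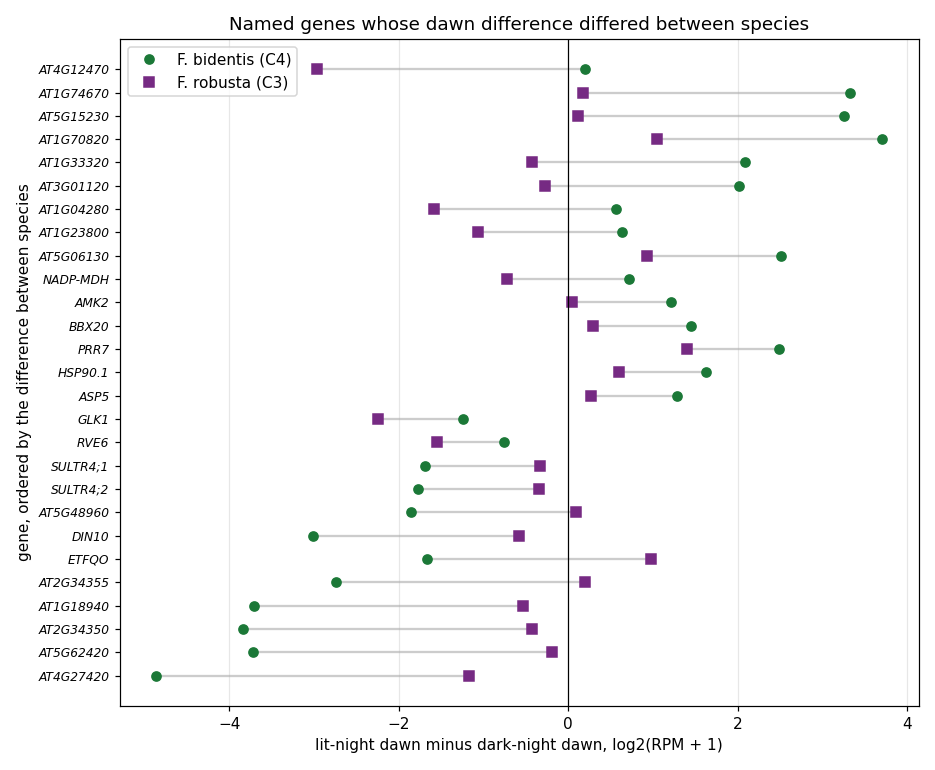
Lit-night minus dark-night dawn in log2(RPM + 1) in F. bidentis (circles) and F. robusta (squares) for the 27 named genes whose difference between species was called as deposited, after TMM and without the F. robusta LL3 dawn. NADP-MDH is at 0.71 and -0.72, ETFQO at -1.67 and 0.97, and AT4G27420 at -4.86 and -1.17.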

How the data were processed

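RNA sequencing of mature leaves (libraries of the TruSeq kit, single reads of 100 bp, 12 libraries per lane, per the labels) was deposited as 1 table of 21869 Arabidopsis gene identifiers. The authors scaled reads per library and deposited the mean RPM of each time point, in steps of 0.5. Per the submitters' processing notes CASAVA and the TAIR10 build were used, with no roles stated; the aligner is not given in the sources used here. Another 200 columns of per-library values match no sample title and were not used, so depth, counts and replicate spread are not analysed here.

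Values were analysed as log2(RPM + 1) in R 4.3.3 with limma 3.58.1 (trend and robust settings) over the 25 F. bidentis means, grouped by kind of dawn, night hour and day hour. The 13563 genes averaging at least 1 RPM in the 50 columns entered the test, with Benjamini-Hochberg adjustment and a threshold of 0.05. The species comparison used the means of both species. Code was tested on simulated data.

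The members, the 21 lists (303 genes, 246 tested) and the tests were chosen with earlier results of these data known. All core clock and C4 cycle genes could be named. Of the other lists, up to 4 genes of smallest adjusted p, called or not, and called genes against the list could be named. Further members where their role helps were chosen after their values were seen. Beyond the lists, up to 10 described genes per direction with the largest called difference, no overlap and at least 10 RPM, and up to 5 per direction for each test of a difference. Alternatives were TMM (trims of 30% and 5%), no filter, a filter at 5 RPM or on the F. bidentis means, a pseudocount of 0.1, the 5 dawn means alone, a minimum change of 2-fold, and leaving out each F. bidentis dawn; leaving out the F. robusta LL3 dawn was added after seeing the data.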

Additional observations from a re-analysis of the deposited data

Results flagged for a closer look

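Each result here was flagged because a difference between 2 differences passed limma's test after adjustment over all genes tested. Values are log2 differences.

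The dawn difference differed from the difference in the first lit night for 1898 genes. Of the named ones it was higher for AT1G51760 (2.88), TOC1 (2.91), AT3G07650 (2.87), AT5G06130 (2.26) and AT4G23650 (1.76), and lower for RVE8 (-3.34), CO (-3.14), BBX18 (-3.04), LNK1 (-3.04) and LHCB6 (-2.74). AT1G51760, a peptidase of the M20 family, was lower by 1.56 in that night and higher by 1.32 at the lit-night dawns. AT4G23650, calcium-dependent protein kinase 6, had 8.5, 8 and 10 RPM at the dark-night dawns and 26.5 and 33.5 RPM at the lit-night dawns, and AT5G06130, a DnaJ-related protein, had 11, 7 and 9.5 RPM and then 58 and 54.5 RPM.

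The dawn difference differed from the daytime difference for 2471 genes. It was higher for AT1G70820 (4.98), AT5G54770 (4.58), PRR7 (3.31), AT2G46670 (3.02) and AT2G22910 (2.80), and lower for BAM9 (-5.38), BBX18 (-3.79), RVE8 (-3.23), AT3G21670 (-2.60) and AT1G18460 (-2.59). AT3G21670, a transporter of the major facilitator family, read 362, 502 and 422.5 RPM at the dark-night dawns and 96.5 RPM at both lit-night dawns.

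The dawn difference of F. bidentis differed from that of F. robusta for 1164 genes, 52 of them named. Of these, 27 were also called after TMM and without the F. robusta LL3 dawn, and some of the 27 are paralog entries that may share reads. Among the 27, the difference was higher in F. bidentis for AT4G12470 (3.16), AT1G74670 (3.15), AT5G15230 (3.15), AT1G70820 (2.66), AT1G33320 (2.51), AT3G01120 (2.28), AT1G04280 (2.15), AT1G23800 (1.70), AT5G06130 (1.58), NADP-MDH (1.43), AMK2 (1.17), BBX20 (1.16), PRR7 (1.09), HSP90.1 (1.03), ASP5 (1.02), GLK1 (1.005) and RVE6 (0.80). It was lower for AT4G27420 (-3.69), AT5G62420 (-3.52), AT2G34350 (-3.41), AT1G18940 (-3.17), AT2G34355 (-2.95), ETFQO (-2.64), DIN10 (-2.43), AT5G48960 (-1.95), SULTR4;2 (-1.43) and SULTR4;1 (-1.36).

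The other 25 missed the threshold in at least 1 of those 2 fits. They were AT5G54770 (1.43), DVR (1.70), SEX4 (1.03) and BASS2 (0.84) on the higher side. On the lower side were AT3G01640 (-4.08), AT2G19810 (-3.71), AT4G27450 (-1.99), MCCA (-1.99), ZAT10 (-1.88), AT3G15450 (-1.80), TPS10 (-1.50), AT2G17880 (-1.47), RUP2 (-1.42), TPS11 (-1.40), TPS9 (-1.38), PCK1 (-1.12), PCK2 (-1.07), HSP70-4 (-1.001), SWEET11 (-0.98), BAM4 (-0.96), SHM1 (-0.95), GLDP2 (-0.88), LWD1 (-0.86), RVE8 (-0.77) and FAMA (-0.67).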

How the results depend on the processing

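No named gene changed direction under an alternative run, but the majority direction of some counts did. The dawn split of 2367 higher and 1978 lower became 1688 and 1732 without LD2, and the dawn-minus-day split of 1209 higher and 1262 lower became 1139 and 1023 without LL1, 1129 and 1124 without LD1 and 1184 and 1008 without LL3. The nearest LD hour of each gene list after TMM was added after seeing the data. TMM scaling called 4457 genes at dawn, 4194 of them shared with the 4345 reported, and the 5 dawn means alone called 3444, with 3321 shared. After TMM the dawn-minus-night split became 491 higher and 885 lower, and the species split 564 higher and 686 lower. Without the F. robusta LL3 dawn, the species difference was called for 326 genes, 160 higher and 166 lower. Under a minimum change of 2-fold, 240 genes were called at dawn, 88 higher and 152 lower. The lists then held 10 core clock, 7 clock output, 5 starch breakdown, 4 nitrogen and sulfur assimilation, 3 starch synthesis and 3 sugar-repressed genes. They also held 2 light signalling, 2 C4 cycle and 2 flavonoid genes, and 1 each of dark and starvation response, light harvesting and chlorophyll synthesis. There were 0 each of Calvin-Benson cycle, photorespiration, photoprotection, heat shock, guard cells, vascular tissue, epidermis, dividing cells and senescence. With the dawn means alone 1 guard cell gene was called, and with a filter at 5 RPM 0 senescence genes (NAP, the reported call, left the test).

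Leaving out each F. bidentis dawn in turn gave 1522 to 2255 genes higher at dawn. The dawn-minus-night count ran from 1100 to 1929, with 727 to 1423 higher and 373 to 533 lower. The species count ran from 479 to 1037, with 121 to 255 higher and 358 to 782 lower. The lowest of each came without LL2. Called members ran from 3 to 5 for sugar-repressed regulators, 2 to 5 for photorespiration, 4 to 8 for flavonoids, 4 to 7 for photoprotection, 1 to 3 for guard cells, 1 to 2 for vascular tissue and for epidermis, and 1 to 3 for senescence. Without a lit-night dawn the other is assumed to vary like the remaining groups. The cause of these changes was not tested. No paired analysis was possible because the values are means over both replicates of a time point. Depth is unknown, so genes near 1 RPM, such as ELF4, are the least certain.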
